A study of Mus musculus with 4 samples.

Results

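*Cxcl9*, *Cxcl10* and *Cxcl11*, which encode the 3 chemokine ligands of the receptor CXCR3, and the receptor gene *Cxcr3* were followed in scRNA-Seq of mouse lung to find which cells made the ligands and which carried the receptor. These 4 genes were chosen from earlier results on the same libraries, so their levels are given as a description and no test was run on them. Of the 4, 3 were analysed among the 32285 genes of the count tables, and *Cxcl11* was not analysed here. All mice were male C57BL/6 wild-type animals, the labels name a food-restricted diet without setting the ages apart, and each group was 1 library of cryopreserved cells from the left lobes of 3 pooled mice. Young mice were aged 2 to 3 months and aged mice 22 months, and at each age 1 group was ventilated and 1 was nonventilated. Ventilation lasted 3 hours, with pure oxygen and no positive end-expiratory pressure, under ketamine and medetomidine anesthesia with buprenorphine. Breaths were set to 20 mL/kg, but the paper states an upper limit on their volume, so that heavier mice received less per kg. It reports aged mice as generally heavier than young ones and gives no separate weights for the pooled mice. Volume per kg may thus have been lower in aged ventilated mice. Whether this bears on the ratios of aged over young ventilated lung was not tested. Nonventilated mice were naive, so that ventilation, anesthesia, arterial and venous lines, infused fluid, the endotracheal tube and oxygen cannot be told apart. Nor can the 3 mice of a pool be told apart, so the spread between mice is unknown and every interval below covers counting error only.

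CXCL9, CXCL10 and CXCL11 are secreted chemokines made by many cell types when they receive interferon, and interferon gamma is the classic inducer of all of them. CXCL10 also answers type I interferon and NF-κB, the factor switched on by TNF and other inflammatory signals. CXCR3 sits mainly on activated T cells and NK cells, which follow these ligands into inflamed tissue such as the lung.

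The ligand genes lie side by side on chromosome 5 in the mouse, all on the minus strand of GRCm38, the build that mm10 names. *Cxcl9* spans chr5:92321347-92328079 and *Cxcl10* spans chr5:92346638-92348889, with 18558 bases between them. *Cxcl10* lies within *Art3*, a gene of the opposite strand (chr5:92331827-92414628) that was at 8.81 to 11.6 UMIs per 1000000 (CPM) in the 4 libraries. *Cxcl11* (chr5:92359544-92365485) follows after 10654 bases and is annotated as a polymorphic pseudogene, and no value is given for it here. *Cxcr3* lies on the X chromosome at chrX:101731535-101734269, also on the minus strand.

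The promoters of both ligands analysed are shown because the genes around them that answer interferon and NF-κB were counted too. Each is the 250 bases before the RefSeq start of the gene (GRCm38.p6, minus strand), at chr5:92328080-92328329 for *Cxcl9* and chr5:92348890-92349139 for *Cxcl10*. Capitals mark matches, on either strand, to the interferon-stimulated response element (GAAA, any 2 bases, GAAA), the gamma-activated site (TTCNNNGAA) or NF-κB sites, of which the longer form is GGGA, any 4 bases, CC and the shorter form is GGGANNNCC.
Cxcl9: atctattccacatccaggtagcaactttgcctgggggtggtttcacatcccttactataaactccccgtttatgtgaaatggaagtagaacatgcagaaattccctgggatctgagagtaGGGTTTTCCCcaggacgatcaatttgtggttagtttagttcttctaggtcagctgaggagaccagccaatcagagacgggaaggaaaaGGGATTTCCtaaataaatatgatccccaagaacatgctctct
Cxcl10: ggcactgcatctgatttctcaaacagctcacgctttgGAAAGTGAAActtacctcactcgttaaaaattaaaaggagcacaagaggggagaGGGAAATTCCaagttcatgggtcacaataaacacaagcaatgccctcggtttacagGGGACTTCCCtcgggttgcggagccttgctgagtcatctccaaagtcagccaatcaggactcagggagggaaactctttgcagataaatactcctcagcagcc
The *Cxcl10* window held the interferon-stimulated response element at -213 to -204 from the start, an NF-κB match at -159 to -150 and another at -103 to -94, the last on both strands and overlapping the shorter form. The *Cxcl9* window held NF-κB matches at -130 to -121 on the reverse strand, where the longer and shorter forms overlap, and at -42 to -34. Of 32851 promoter windows of the same length, 2.98% held the interferon-stimulated response element, 26.9% held either NF-κB form and 0.630% held both kinds, as *Cxcl10* did. The gamma-activated site, present in 7.02% of windows, had no match in either one, which says only that these letters are not in these windows.

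The libraries held 3400 to 4497 barcodes, of which 2171 to 2976 passed the cell filter, with 22814008 to 28010151 unique molecular identifiers (UMIs) kept per library and medians of 7871 to 9104 UMIs per cell. Between 17.9% and 25.4% of barcodes exceeded the mitochondrial limit. Cells were clustered, and 29 of 30 clusters were given names ending in "-like" from marker genes, which made 21 classes. No pair of libraries shared more than 7 barcodes, or more than 3 among the cells kept. Levels are CPM of all UMIs of the library or class. A gene was called higher or lower where the ratio of CPM was at least 2 or at most 0.5 and its 95% counting interval left out 1, among genes with at least 20 UMIs in 1 of the libraries compared. The 4 comparisons share libraries and are therefore not independent.

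*Cxcl10* was higher in both ventilated libraries than in the nonventilated library of the same age. It stood at 20.6 CPM (95% counting interval 18.8 to 22.5) in young nonventilated, 387 CPM (380 to 394) in young ventilated, 45.3 CPM (42.6 to 48.0) in aged nonventilated and 110.0 CPM (106 to 114) in aged ventilated lung. The young ventilated library was the highest by far and no intervals overlapped. The ratio was 18.8 (17.2 to 20.6) in young and 2.43 (2.26 to 2.61) in aged mice, and the young log2 ratio exceeded the aged one by 2.95 (2.79 to 3.12). Of all genes tested, 6.07% were called higher after ventilation in young and 4.12% in aged mice, where the median gene moved by -0.25 and -0.20 on the log2 scale. Over all deposited barcodes, with no cell filter, the aged log2 ratio was 0.80, below the 2-fold limit. Without ventilation *Cxcl10* was 2.20-fold (1.98 to 2.45) higher in aged than in young lung, a call shared by 3.09% of genes. Among ventilated mice it was 3.52-fold (3.37 to 3.68) lower in aged lung, as were 2.78% of genes. In such library sums, more cells of a producing type and more RNA per cell cannot be told apart.

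*Cxcl9* was also higher in both ventilated libraries, and these stood at a similar level. Its sums were 31 and 727 UMIs in young lung without and with ventilation and 98 and 524 UMIs in aged lung, or 1.28 CPM (0.871 to 1.82), 26.0 CPM (24.1 to 27.9), 4.04 CPM (3.28 to 4.92) and 23.0 CPM (21.0 to 25.0). The ratio was 20.2 (14.1 to 30.0) in young and 5.69 (4.58 to 7.13) in aged mice, and aged over young was 3.15 (2.08 to 4.88) without ventilation. Between the ventilated libraries the ratio of 0.88 (0.79 to 0.99) was not called. These sums rested on 15, 107, 20 and 46 cells, and a single barcode held 45.2%, 13.9%, 43.9% and 27.3% of them. Taking the percentile limit on UMIs over the barcodes left by the other limits, which drops the deepest cells, brought the aged log2 ratio from 2.50 to 1.14 and that between the ventilated libraries from -0.18 to -1.31.

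*Cxcr3* was sparse, with 53, 20, 88 and 72 UMIs in the same order of libraries, or 2.19, 0.714, 3.63 and 3.16 CPM. The young ventilated library was the lowest. It was 3.07-fold (1.81 to 5.42) lower than young nonventilated lung, where 17.8% of all genes were called lower, and the ratio of aged over young ventilated lung was 4.42 (2.66 to 7.66), where 3.93% were called higher. The aged ratio after ventilation was 0.87 (0.63 to 1.20) and aged over young nonventilated was 1.65 (1.16 to 2.37), and neither was called. In the first comparison 11.3% of genes were called lower, and in the second 3.09% were called higher and 1.84% lower. With every cell thinned to 2000 UMIs the young log2 ratio of *Cxcr3* went from -1.58 to -0.67, under the 2-fold limit.

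The share of cells with a *Cxcl10* UMI was 4.38%, 33.2%, 6.09% and 12.2% in the order above. Thinned to 2000 UMIs, which left out shallower cells and kept 2263, 2529, 2228 and 1929 cells, the shares were 2.25%, 21.0%, 3.07% and 6.64%. The unthinned shares of *Cxcl9* were 0.592%, 3.60%, 0.806% and 2.12%, and thinned ones 0.131%, 1.87%, 0.306% and 0.832%. Those of *Cxcr3* were 0.947%, 0.336%, 1.94% and 1.66% unthinned and 0.270%, 0.139%, 0.589% and 0.497% thinned. B-like cells were taken as the reference for the background from free RNA. In young ventilated lung they were only 37 cells with 334997 UMIs, which bounds that background loosely. A *Cxcl10* UMI was seen in 0 of 95, 1 of 37, 1 of 101 and 0 of 92 of them, and a *Cxcl9* UMI in none, at medians of 7467 to 11055 UMIs per cell.

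**Figure D1:**
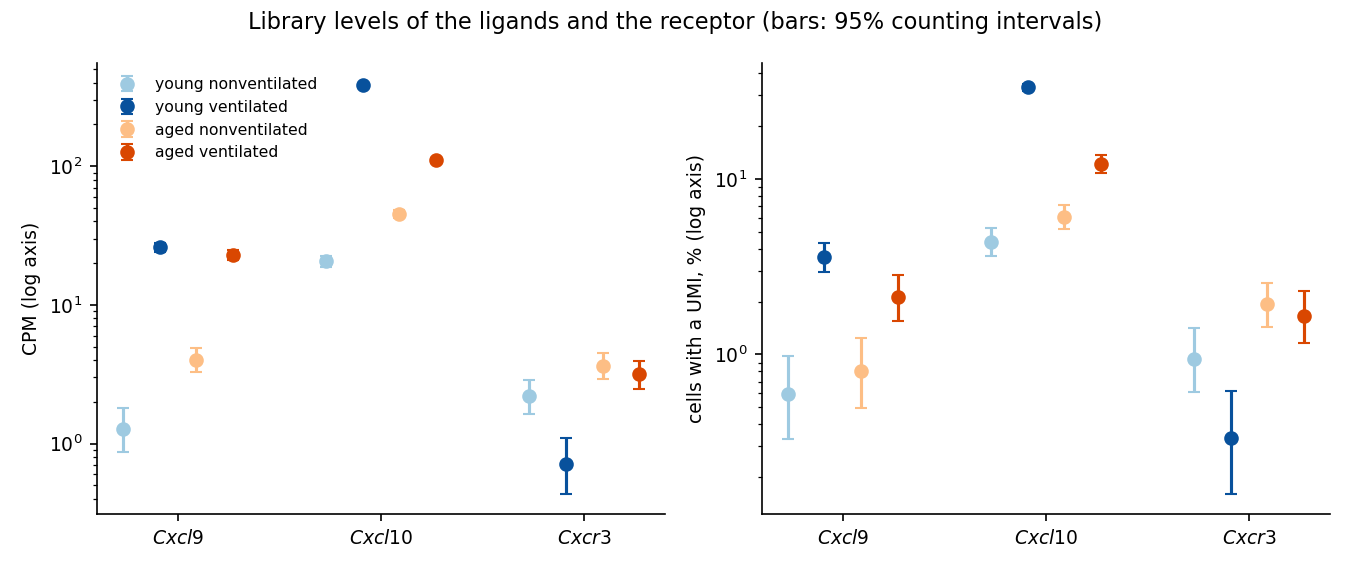
Level in CPM (left) and share of cells with a UMI (right) of *Cxcl9*, *Cxcl10* and *Cxcr3* in the 4 libraries, both on log axes, with 95% counting intervals as bars. *Cxcl10* reached 387 CPM in young ventilated and 110.0 CPM in aged ventilated lung, whereas *Cxcl9* reached 26.0 and 23.0 CPM.

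Aerocytes, the capillary endothelial cells that lie against the alveolar epithelium for gas exchange, carried the highest level of *Cxcl10* of any class in young ventilated lung. In the order young nonventilated, young ventilated, aged nonventilated, aged ventilated, which is kept throughout, aerocyte-like cells held 19, 3474, 26 and 126 *Cxcl10* UMIs, or 12.4, 2504, 27.8 and 130 CPM. The young ventilated sum stood apart from the other 3. The ratio was 202 (129 to 336) in young and 4.67 (3.04 to 7.42) in aged mice, and the aged ventilated level was 19.3-fold (16.2 to 23.3) below the young ventilated one. In this class 8.27% of genes were called higher in young and 5.85% in aged mice, and 4.31% lower in aged than in young ventilated mice. The transcript was spread over many cells, with a UMI in 6 of 221, 156 of 226 (69.0%), 8 of 129 and 24 of 116 (20.7%) aerocyte-like cells and at most 245 UMIs in any 1 of them. After thinning the shares were 1.38%, 60.9%, 4.87% and 10.9%. The class was shallowest where *Cxcl10* was highest, at a median of 5034.5 UMIs per cell, and its own 8 markers summed to 11115, 5542, 9803 and 6567 CPM. A shallow cluster within the class held 474 of the 3474 UMIs, and whether marker loss bears on the level was not tested.

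General capillary endothelial cells, which maintain and repair the capillary bed, differed between the ages. General capillary-like cells held 81, 2289, 81 and 63 *Cxcl10* UMIs, or 17.1, 418, 17.6 and 17.4 CPM, so that the young ventilated library stood above the other 3. The ratio was 24.4 (19.5 to 30.8) in young mice and 0.99 (0.70 to 1.39) in aged mice, and the log2 ratios differed by 4.63 (4.05 to 5.20). Here 7.58% of genes were called higher in young mice, and the aged ventilated level was 24.0-fold (18.7 to 31.3) below the young ventilated one, as were 2.87% of genes by 2-fold or more. A UMI was seen in 34 of 659, 349 of 757, 29 of 579 and 26 of 448 cells. Most of the ventilated cells of this class formed a cluster of their own at both ages, and within it the young cells had 416 CPM and the aged cells 21.0 CPM. In venous-like cells the young ventilated library was again the highest, with 49, 398, 30 and 53 UMIs, or 54.6, 616, 37.6 and 53.3 CPM, and ratios of 11.3 (8.37 to 15.5) and 1.42 (0.89 to 2.30). The endothelial classes together held 29.9% of all *Cxcl10* in young nonventilated, 56.9% in young ventilated, 12.8% in aged nonventilated and 9.65% in aged ventilated lung. No class of arterial endothelial cells was formed, so the general capillary-like and other endothelial classes may include them.

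Monocytes and neutrophils had more *Cxcl10* after ventilation at both ages. Classical monocyte-like cells, the recruited Ly6c-high monocytes of blood, held 0, 959, 15 and 1072 UMIs, or 0, 472, 11.2 and 387 CPM. The ventilated libraries were both high and within 1.22-fold of each other. The class was made of different clusters with and without ventilation, 1 of which held 0, 108, 0 and 142 of its cells and another 105, 1, 90 and 3, so the ratios compare cells of different clusters. Against the floor of 3 UMIs the young ventilated level was at least 263-fold higher than the young nonventilated one, where 0 of 109 cells had a UMI, which allows a share of cells with a UMI, not of cells expressing the gene, of up to 2.75%. In aged mice the ratio was 34.5 (20.8 to 61.9), although all 15 UMIs of the nonventilated library came from 1 cell. Genes called higher made up 11.3% in young and 10.4% in aged cells of this class. Neutrophil-like cells held 16, 1181, 9 and 525 UMIs, or 29.0, 1089, 36.9 and 400.2 CPM, with ratios of 37.6 (23.0 to 65.9) and 10.8 (5.67 to 23.8), against 12.7% and 8.57% of genes called higher. In them the aged ventilated level was 2.72-fold (2.45 to 3.02) below the young one. Nonclassical monocyte-like cells, which patrol the vessel wall, held 1, 123, 15 and 270 UMIs, with an aged ratio of 24.9 (14.8 to 45.1). Of their 270 UMIs, 108 came from a barcode that carried 7 of 8 neutrophil markers beside 6 of its own.

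**Figure D2:**
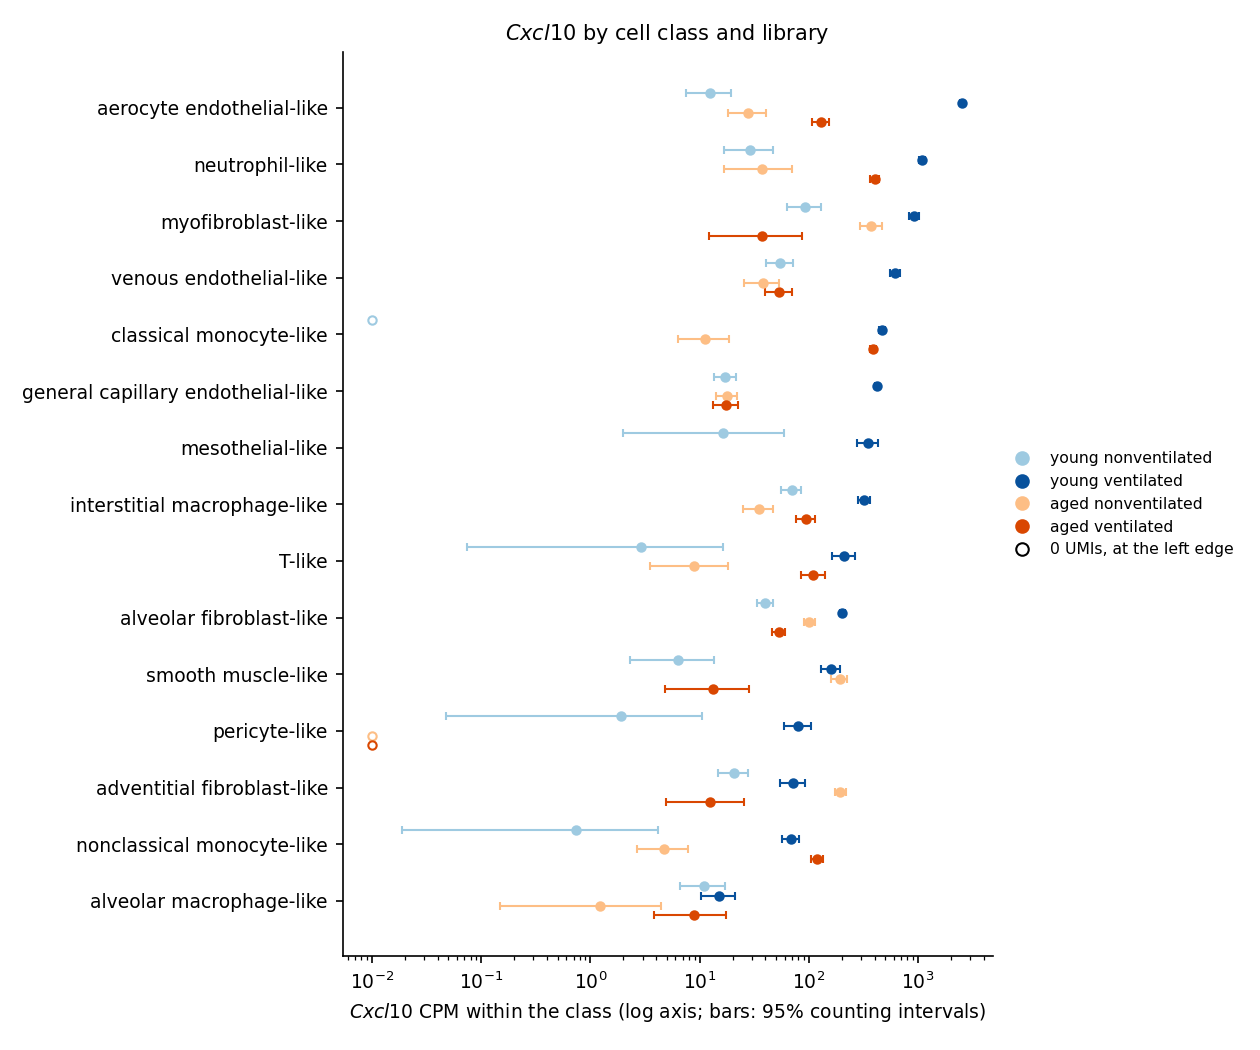
*Cxcl10* level in CPM (log axis, with 95% counting intervals) in the 15 classes with at least 20 UMIs in a library, coloured by library and ordered by the young ventilated level. Open circles at the left edge mark 0 UMIs, and class sums with fewer than 10 cells are left out. Aerocyte-like cells lead in young ventilated lung at 2504 CPM, and neutrophil-like (400.2 CPM) and classical monocyte-like cells (387 CPM) lead in aged ventilated lung.

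Ordered by level, aerocyte-like cells in young ventilated lung were followed by neutrophil-like (1089 CPM) and myofibroblast-like cells (922 CPM), whose intervals overlapped. Venous-like, classical monocyte-like and general capillary-like cells came next. Of the 314 myofibroblast-like UMIs in that library, 99 came from a barcode with 4 of its 8 own markers and 4 of smooth muscle. The 8 myofibroblast markers summed to 11232, 1936, 9838 and 3918 CPM in the class, and whether marker loss bears on its level was not tested. In aged ventilated lung the order began with neutrophil-like and classical monocyte-like cells, whose intervals overlapped, followed by aerocyte-like cells. Without ventilation myofibroblast-like cells came first at both ages, at 92.5 CPM (63.7 to 130) in young and 372 CPM (293 to 465) in aged lung. The young value overlapped that of interstitial macrophage-like cells (69.4 CPM). Of the 77 aged UMIs, 43 came from 1 barcode, and without it the aged level was 174 CPM. Monocyte, macrophage and dendritic classes together held 13% of all *Cxcl10* in young ventilated and 58.1% in aged ventilated lung. Their pooled level was similar in both, with 1406 and 1457 UMIs, or 183 and 185 CPM, whereas the endothelial classes held 6164 and 242 UMIs. The single classes behind it differed. Interstitial macrophage-like (321 and 93.5 CPM), classical monocyte-like (472 and 387 CPM), alveolar macrophage-like (14.9 and 8.85 CPM) and dendritic type 1-like cells (10.9 and 1.26 CPM) were lower in aged ventilated lung. Nonclassical monocyte-like cells (68.6 and 118 CPM) were higher, with 108 of 270 aged UMIs in 1 barcode.

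Adventitial fibroblasts, myofibroblasts and smooth muscle cells had more *Cxcl10* after ventilation in young mice and less in aged mice. Adventitial fibroblast-like cells, the fibroblasts around vessels and airways, held 43, 58, 329 and 7 UMIs, or 20.5, 71.2, 195 and 12.3 CPM. The aged nonventilated library was the high one, and its 329 UMIs were spread over 24 cells with at most 67 in 1 of them. The ratio was 3.48 (2.30 to 5.28) in young mice, and in aged mice the ventilated level was 15.8-fold (7.58 to 39.6) lower, where 14.3% of genes were called lower. Myofibroblast-like cells held 33, 314, 77 and 5 UMIs, a ratio of 9.97 (6.95 to 14.7) in young mice. In aged mice the ventilated level was 9.94-fold (4.08 to 31.5) lower, against 14.4% of genes called lower. Whether the lower marker sums of this class after ventilation bear on its ratios was not tested. Smooth muscle-like cells held 6, 95, 143 and 6 UMIs and were 14.5-fold (6.52 to 40.3) lower in aged ventilated mice, against 8.84% of genes. Of the 143 UMIs, 115 came from 1 barcode, and 1 UMI was left without the cells of highest doublet scores. These sums are small, with 16 to 137 cells per class and library. The adventitial fibroblast-like class held 137, 51, 113 and 37 cells. With 20 principal components in place of 37, the cluster of that name held 146, 496, 121 and 243 cells. The class thus depended on the clustering, and whether its ratios compare like cells was not tested.

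Alveolar fibroblast-like cells, the larger fibroblast class of the alveolar wall, held 136, 1387, 308 and 197 UMIs, or 39.8, 203, 101 and 52.9 CPM. The ratio was 5.10 (4.27 to 6.13) in young mice, and in aged mice it was 0.52 (0.43 to 0.63), short of a call. Their 8 markers summed to 19782, 6837, 18543 and 8717 CPM in the 4 libraries, and cells of ventilated mice formed a cluster of their own. Mesenchymal classes together held 78.0% of all *Cxcl10* in aged nonventilated lung, compared with 44.4% in young nonventilated, 18.3% in young ventilated and 8.65% in aged ventilated lung.

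**Figure D3:**
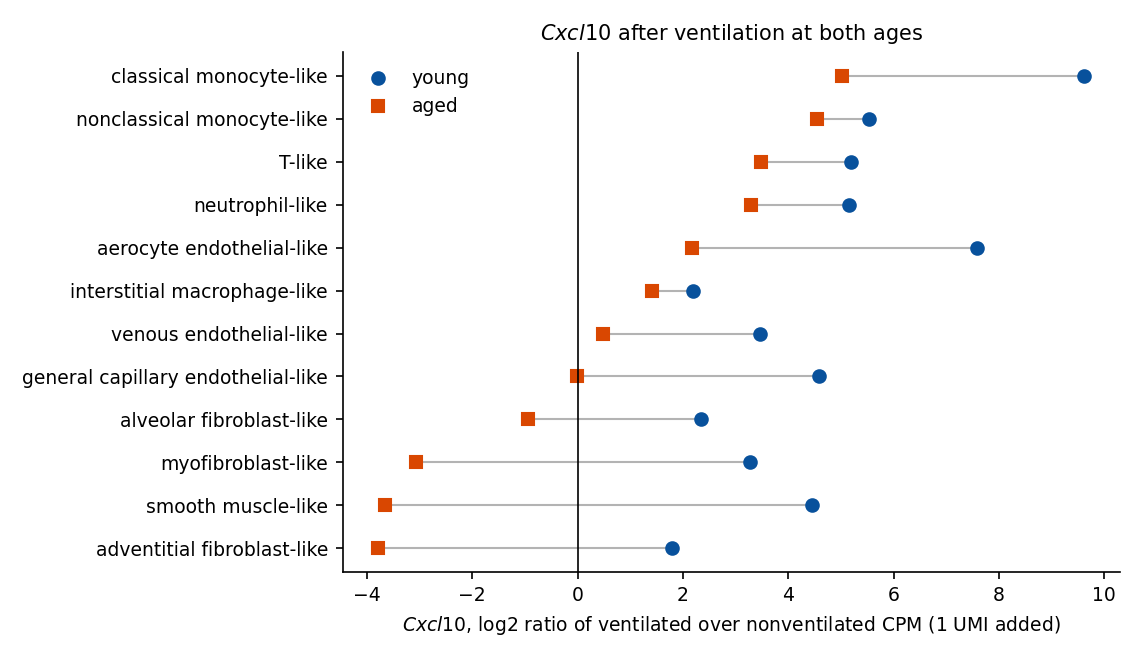
Log2 ratio of *Cxcl10* CPM, ventilated over nonventilated with 1 UMI added to each sum, in young (circles) and aged mice (squares) for the 12 classes tested at both ages, joined by lines. Adventitial fibroblast-like, myofibroblast-like and smooth muscle-like cells lie right of 0 in young and left of 0 in aged mice, at -3.79, -3.07 and -3.65 in the latter. Of the aged nonventilated UMIs, 43 of 77 in myofibroblast-like and 115 of 143 in smooth muscle-like cells came from 1 barcode each.

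Counted over classes, *Cxcl10* was called higher after ventilation in 14 of 15 classes tested in young mice. The exception was alveolar macrophage-like cells, with 19, 32, 2 and 8 UMIs and a young ratio of 1.35 (0.74 to 2.52). Of 3545 genes tested in at least as many classes, 12 (0.34%) were called higher in at least 14. In aged mice it was called higher in 6 and lower in 3 of 12 classes, which 1.36% and 14.2% of genes tested in at least 12 matched or exceeded. Without ventilation it was higher in aged mice in 5 of 8 classes, and among ventilated mice it was lower in aged mice in 10 of 14. Of genes tested in at least as many classes, 0.29% and 0.13% matched or exceeded these counts. The 5 included myofibroblast-like and smooth muscle-like cells, where 1 barcode each held 43 of 77 and 115 of 143 aged nonventilated UMIs. Over single classes, between 5.28% and 18.5% of genes were called higher after ventilation in young mice and between 2.01% and 12.1% in aged mice.

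Some of the smaller sums rested on few barcodes. Interstitial macrophage-like cells held 89, 283, 40 and 106 *Cxcl10* UMIs, with ratios of 4.62 (3.63 to 5.93) and 2.69 (1.85 to 3.97). T-like cells held 1, 68, 7 and 67 UMIs, of which 53 of the 68 came from a barcode that also carried 7 of 8 aerocyte markers and 45 of the 67 from a barcode with 8 of 8 proliferation markers. Pericyte-like cells held 1, 52, 0 and 0 UMIs and mesothelial-like cells of young mice 2 and 79 UMIs. The 2 named alveolar epithelial classes held few UMIs, on few cells. The 27, 36, 34 and 19 type I-like cells held 0, 11, 0 and 0 UMIs. The 17, 25, 23 and 11 type II-like cells, the surfactant producers, held 2, 6, 0 and 0. In young ventilated lung these were 21.7 and 13.8 CPM. The unnamed cluster, with *Krt8*, *Scgb1a1*, *Krt18* and *Cldn18* among its 10 leading genes, held 0, 15, 0 and 1 UMIs, or 44.7 CPM in young ventilated lung. Lymphatic endothelial-like cells held 0, 3, 4 and 0 UMIs and basophil-like cells 0, 3, 0 and 0.

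*Cxcl9* was at its highest CPM in conventional dendritic type 1-like, interstitial macrophage-like and classical monocyte-like cells of ventilated lung. In each of these sums 1 barcode held between 53.2% and 85.1% of the UMIs, the most in interstitial macrophage-like cells. In young ventilated lung, general capillary-like cells held 145 UMIs at a lower level of 26.5 CPM. Conventional dendritic type 1-like cells, which present antigen to CD8 T cells, held 2, 141, 7 and 80 *Cxcl9* UMIs, or 2.87, 171, 7.20 and 101 CPM. Both ventilated libraries were high. The ratio was 59.5 (16.2 to 496) in young and 14.0 (6.50 to 36.0) in aged mice, against 6.79% and 4.37% of genes called higher in the class. A UMI was seen in 2 of 34, 13 of 41, 4 of 49 and 7 of 34 cells at medians of 20316 to 24598 UMIs per cell. Leaving out the barcode with the most UMIs left 41 and 33 UMIs in the ventilated libraries. This class has the deepest cells, and with the percentile limit taken over the barcodes left 5 *Cxcl9* UMIs remained in aged nonventilated and 0 in aged ventilated cells.

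Classical monocyte-like cells held 2, 190, 0 and 218 *Cxcl9* UMIs, or 1.20, 93.4, 0 and 78.7 CPM, in 2, 11, 0 and 10 cells. Of the ventilated sums, 190 and 214 UMIs came from the cluster without nonventilated cells. The ratio was 78.1 (21.3 to 650) in young mice, and the aged ventilated level was at least 35.1-fold above the floor of 3 UMIs. Without the leading barcodes 89 and 75 UMIs were left in the ventilated libraries. The barcode that led the aged ventilated sum held 143 *Cxcl9* and 166 *Cxcl10* UMIs and carried all 8 interstitial macrophage markers beside 5 of its own. Interstitial macrophage-like cells held 14, 114, 3 and 121 *Cxcl9* UMIs, of which 97 of the 114 and 103 of the 121 came from 1 barcode each. The latter barcode carried none of the 8 interstitial macrophage markers and 7 of 8 markers of mature dendritic cells. Without these barcodes the young ventilated level was 19.7 CPM, below the 39.2 CPM of aerocyte-like and 21.0 CPM of general capillary-like cells treated alike. The aged ventilated level was then 16.3 CPM on 18 UMIs. The interstitial macrophage-like cluster also had *Mgl2* and *Cd209a* among its 10 leading genes. Both are listed markers of conventional dendritic type 2 cells, which had no class of their own.

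In the capillary endothelium *Cxcl9* was spread over many cells in young ventilated lung. General capillary-like cells held 1, 145, 9 and 3 UMIs in 1, 41, 3 and 3 cells, a level 31.9-fold (10.7 to 156) lower in aged than in young ventilated mice. Aerocyte-like cells held 1, 78, 0 and 74 UMIs in 1, 15, 0 and 1 cells, so that all 74 aged ventilated UMIs came from a single barcode, which carried 7 of 8 aerocyte markers. Other sums of 1 cell were the 43 UMIs of adventitial fibroblast-like and the 14 of alveolar fibroblast-like cells in aged nonventilated lung. Alveolar macrophage-like cells held 6, 1, 8 and 6 UMIs in 4, 1, 6 and 4 cells. *Cxcl9* was called higher after ventilation in 6 of 6 classes tested in young mice. Of genes tested in at least 6 classes, 5.65% were called higher in at least 6. In aged mice it was called higher in 4 of 5, and 4.36% of genes tested in at least 5 were called higher in at least 4. *Cxcl9* was called lower in 1, adventitial fibroblast-like cells, on the 43 UMIs of 1 cell. Of genes tested in at least 5 classes, 50.0% were lower in at least 1. The 4 aged calls became 2 without the leading barcodes or with the percentile over the barcodes left, and 0 after thinning, where the 6 young calls became 1.

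**Figure D4:**
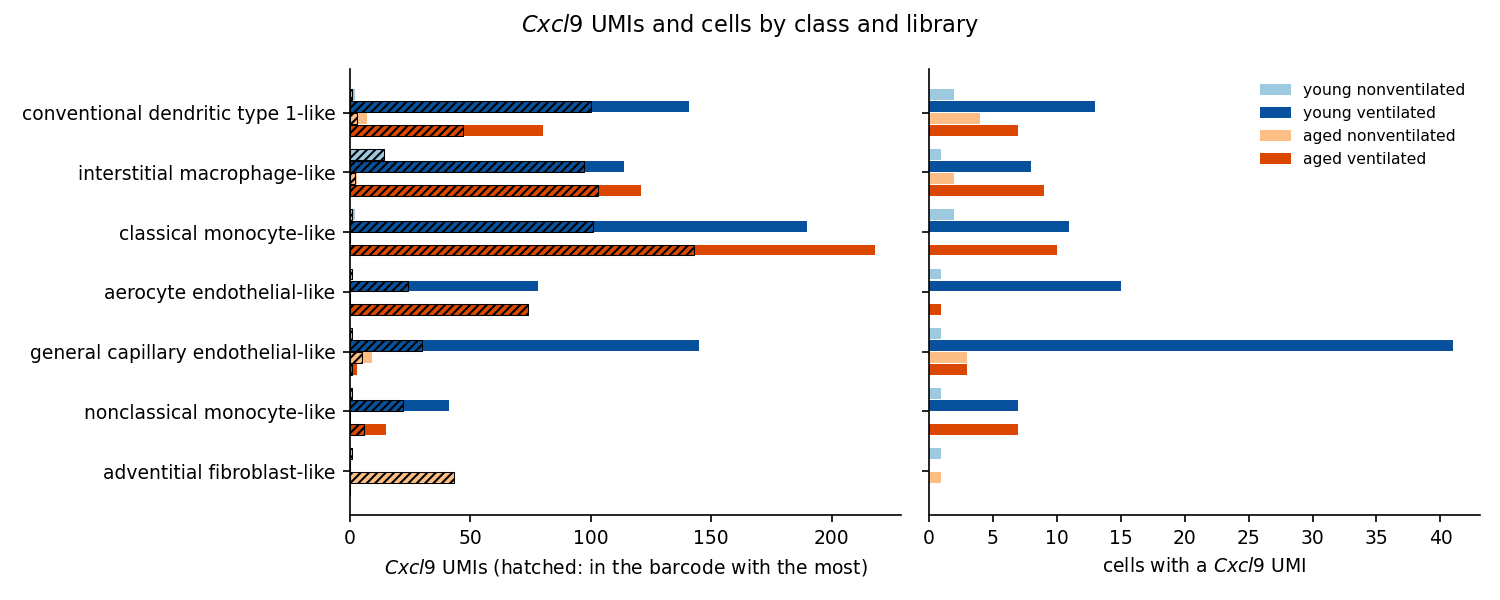
*Cxcl9* UMIs (left, the hatched part in the barcode with the most) and cells with a *Cxcl9* UMI (right) in the 7 classes with at least 20 UMIs in a library. In young ventilated lung 41 general capillary-like cells carried 145 UMIs, whereas 1 aerocyte-like cell carried all 74 UMIs of aged ventilated lung.

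Cells with *Cxcl9* often held *Cxcl10* too, and most so in young ventilated lung. *Cxcl10* was also most common there, with a UMI in 4.38%, 33.2%, 6.09% and 12.2% of all cells of the libraries. A UMI of each was seen in 2, 71, 5 and 14 cells, which was 13.3%, 66.4%, 25.0% and 30.4% of the cells with *Cxcl9* and 1.80%, 7.19%, 3.31% and 5.28% of those with *Cxcl10*. In young ventilated lung this held for 15 of 15 aerocyte-like, 33 of 41 general capillary-like and 8 of 11 classical monocyte-like cells with *Cxcl9*. With or without *Cxcl9*, 156 of 226, 349 of 757 and 61 of 170 cells of these classes had *Cxcl10*. Of the conventional dendritic type 1-like cells with *Cxcl9* in the same library, 1 of 13 held both. That class held 0, 9, 12 and 1 *Cxcl10* UMIs in the 4 libraries.

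Most *Cxcr3* was found in T-like cells. Of 233 *Cxcr3* UMIs in 118 cells, T-like cells held 142 (60.9%) in 62 cells, conventional dendritic type 1-like cells 56 (24.0%) in 33 cells and B-like cells 26 (11.2%) in 14 cells. Of the 118 cells, 63 had a single UMI, 11 also held *Cxcl10* and 3 also held *Cxcl9*, the latter all dendritic type 1-like. Fibroblasts of both classes, which should lack the receptor, had a UMI in 0 of 458, 0 of 583, 1 of 390 and 0 of 339 cells at medians of 13283 to 13892 UMIs per cell, where 0 allows shares of cells with a UMI of up to 0.655%, 0.515% and 0.885%. Aerocyte-like cells had none in any library.

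T-like cells held 20, 17, 52 and 53 *Cxcr3* UMIs, or 58.3, 52.5, 65.4 and 87.2 CPM. The intervals of the 4 libraries overlapped and none of the 4 ratios, from 0.90 to 1.66, was called. A UMI was seen in 6 of 41 (14.6%), 8 of 47 (17.0%), 26 of 78 (33.3%) and 22 of 65 (33.8%) cells, and after thinning in 5.61%, 7.89%, 12.0% and 12.0%. T-like cells of aged mice were deeper, with medians of 10074.5 and 8260 UMIs against 7163 and 5212 in young mice. Of the T-like cells with *Cxcr3*, 52 of 62 had a UMI of *Cd3e*, a subunit of the T cell receptor complex, compared with 88 of 169 without *Cxcr3*. *Cd4* was seen in 13 and *Cd8a* in 15 of the 62, and the NK receptor genes *Klrb1c* and *Ncr1* in 8 and 3. Of the 169 without *Cxcr3*, *Cd4* was seen in 18, *Cd8a* in 33, *Klrb1c* in 30 and *Ncr1* in 19. No class of NK cells was formed, so the T-like class may include them.

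Conventional dendritic type 1-like cells had less *Cxcr3* after ventilation at both ages. They held 21, 3, 24 and 8 UMIs, or 30.2, 3.64, 24.7 and 10.1 CPM, so that both ventilated libraries were the low ones. The level was 8.29-fold (2.48 to 43.4) lower in young and 2.45-fold (1.06 to 6.30) lower in aged ventilated mice, against 8.96% and 6.95% of genes called lower in the class. A UMI was seen in 11 of 34 (32.4%), 2 of 41 (4.88%), 14 of 49 (28.6%) and 6 of 34 (17.6%) cells, and after thinning in 5.65%, 0.655%, 4.38% and 1.83%. All 33 of these cells with *Cxcr3* also carried *Xcr1*, a receptor that defines the type, as did 110 of 125 without it. B-like cells held 6, 0, 10 and 10 *Cxcr3* UMIs, the 6 in 1 cell, and 13 of the 14 cells with a UMI also carried the B cell gene *Cd79a*. *Cd3e*, *Xcr1* and *Cd79a* were among the markers that named the T-like, dendritic type 1-like and B-like classes. Their presence is therefore not independent of the names.

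**Figure D5:**
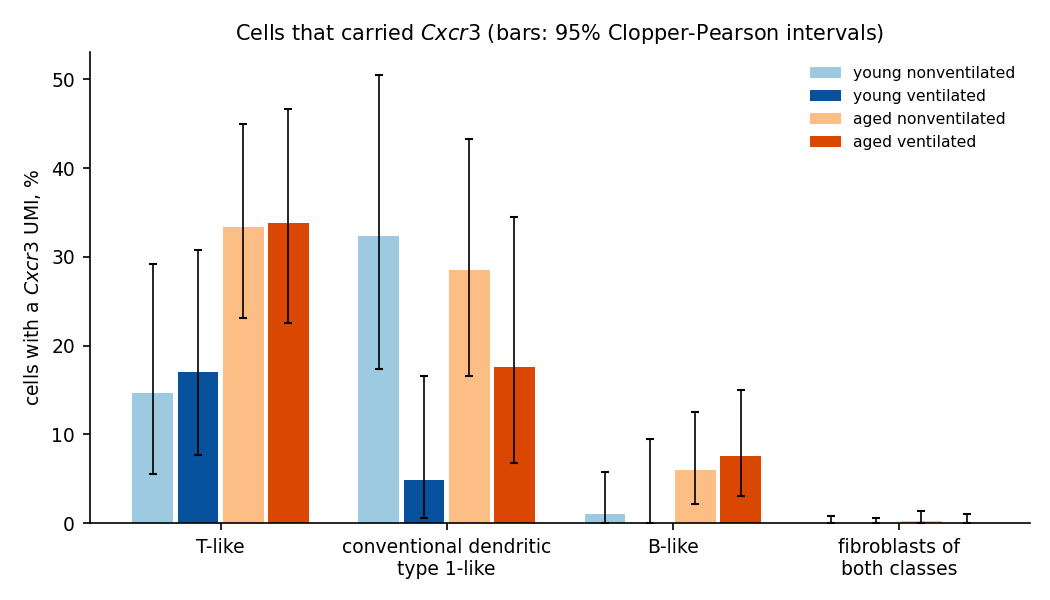
Share of cells with a *Cxcr3* UMI (percent, with 95% Clopper-Pearson intervals) in T-like, conventional dendritic type 1-like and B-like cells and in fibroblasts of both classes, by library. Dendritic type 1-like cells stood at 32.4% and 4.88% in young and at 28.6% and 17.6% in aged mice without and with ventilation, and fibroblasts were at or near 0 throughout.

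A list of 56 genes of the pathway was read in the same way, and 52 to 54 of them had enough UMIs in each library comparison. After ventilation 17 were called higher and 4 lower in young mice, and 11 higher and 3 lower in aged mice. Of all genes, 6.07% were called higher and 17.8% lower in young and 4.12% and 11.3% in aged mice. Among the inducers, *Tnf* was 2.38-fold higher in young and 2.36-fold in aged mice and *Il12b*, a subunit of IL-12, 2.01-fold in young mice. *Ifng*, the gene of interferon gamma, had 9, 15, 22 and 29 UMIs, with ratios of 2.43 for aged over young nonventilated and 2.37 for aged over young ventilated mice, both called. Of the signalling genes, *Irf7* (5.01-fold) and *Nfkb1* (2.03-fold) were higher in young ventilated mice. *Tbx21*, the master regulator of type 1 T cells, was 3.54-fold higher in aged than in young nonventilated mice and 2.02-fold lower after ventilation in aged mice.

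Of 10 genes known to be induced with the ligands by interferon, after ventilation 7 were called higher in young mice (median log2 ratio 2.13) and 3 in aged mice (0.72), while 6.07% and 4.12% of all genes were called higher and their medians were -0.25 and -0.20. *Rsad2*, an antiviral enzyme, was 37.2-fold higher in young and 5.60-fold in aged mice, *Isg15*, a ubiquitin-like modifier, 13-fold and 3.18-fold, and *Ifit1*, which binds foreign RNA, 8.58-fold and 2.23-fold. *Ifit3* (14.6-fold), *Cd274* (4.44-fold), *Gbp2* (4.35-fold) and *Ido1* (4.14-fold) were called in young but not in aged mice, a difference that was not tested. Between the ventilated libraries 8 of the 10 were called lower in aged mice, from *Ifit3* (6.81-fold) and *Rsad2* (5.33-fold) to *Ido1* (2.16-fold), at a median of -1.61, against 2.78% of all genes. Without ventilation no gene of the list was called between the ages, at a median of 0.33.

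Within aerocyte-like cells all 10 of these genes were called higher in young mice (median 3.35) and 7 in aged mice (1.36), and 8 were lower in aged than in young ventilated cells (-2.12). The shares of all genes of the class were 8.27%, 5.85% and 4.31%. In general capillary-like cells 7 were higher in young mice (2.27), 1 was higher and 1 lower in aged mice (0.06), and 9 were lower in aged than in young ventilated cells (-1.99). Here 7.58% of all genes were higher in young mice, 4.98% higher and 13.3% lower in aged mice and 2.87% lower in aged than in young ventilated cells, so that the aged count was near the share of all genes. In classical monocyte-like cells, whose clusters differed with ventilation, 4 of 7 tested were higher at both ages (1.37 and 1.12). The shares of all genes of the class were 11.3% and 10.4%. Of the 7, 2 were lower in aged than in young ventilated cells (-0.71). Over single classes, between 2.05% and 10.8% of all genes were called lower in that comparison.

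Of the genes that handle the ligands, *Sdc4*, a heparan sulfate carrier that can hold chemokines on the cell surface, was 4.87-fold higher in young and 2.91-fold in aged ventilated mice. *Dpp4*, the peptidase that trims and inactivates CXCL10, was 3.28-fold lower in young ventilated mice. *Mmp9* was 2.07-fold lower in young and 2.99-fold higher in aged ventilated mice, and 3.21-fold lower in aged than in young nonventilated mice. Other lymphocyte chemokines moved in both directions. *Cxcl13*, the B cell attractant, was 2.68-fold higher in young and 31.6-fold in aged ventilated mice and *Ccl19* 2.74-fold and 2.80-fold, whereas *Cxcl12* was 3.16-fold and 2.65-fold lower. *Cxcl16* (2.29-fold) and *Cx3cl1* (2.06-fold) were higher in young ventilated mice, *Ccl22* was 2.17-fold lower in aged ventilated mice, and *Ccl5* was 2.75-fold higher in aged than in young nonventilated mice. Among the receptors, *Ccr2* was 2.10-fold lower in young ventilated mice, and *Ccr6* (3.22-fold) and *Cxcr5* (2.04-fold) were higher in aged ventilated mice. Between the ages, *Ccr7* was 2.29-fold higher and *Cxcl13* 4.52-fold lower in aged nonventilated mice. Among ventilated mice *Ccr6* (8.03-fold), *Cxcl13* (2.61-fold) and *Ccr2* (2.14-fold) were higher and *Ccl22* (2.69-fold) and *Irf7* (2.56-fold) lower in aged lung.

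Over 81 sums of a class in a library with at least 50000 UMIs, the genes whose log2(CPM + 1) was most like that of *Cxcl10* were *Gbp2* (Pearson's r = 0.666), *Gbp5* (0.662), *Fas* (0.638), *Oasl2* (0.636) and *Chmp4b* (0.630), out of 13361 genes. *Gbp2* and *Gbp5* encode interferon-induced GTPases and *Fas* a death receptor. For *Cxcl9* they were *Oas1g* (0.621), *Psme2* (0.616), *Htr7* (0.615), *Gm43569* (0.614) and *Gm17089* (0.613), of which *Psme2* encodes a proteasome activator and *Oas1g* an enzyme that senses double-stranded RNA. The ligands themselves correlated at 0.408. The sums share 4 libraries and differ in depth, so these values are descriptions.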

How the data were processed

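The authors made the deposited UMI counts per gene and barcode with Cell Ranger 7.0.0 against mm10, with 3 mice pooled per library and barcodes called as cells by that program. Counts were used as deposited, 15428 barcodes in 4 libraries. Members, gene lists and tests were chosen with earlier results of these data known. The 10160 barcodes kept had from 200 up to 5000 genes, a mitochondrial share of no more than 10% and no more than 28597 UMIs, the 93rd percentile over all barcodes. Cells were clustered in Seurat 5.3.0 under R 4.3.3 (2000 variable genes, *Cxcl9* and *Cxcl10* among them, 37 principal components, resolution 0.5). For each cluster, types with at least 3 markers seen in 20% of its cells were considered. The cluster took the type with the highest mean log2 fold of its markers over other cells, if positive. It stayed unnamed where other types together had more markers among its 10 leading genes, or where it was shallow with none of its own there. This rule was set after the clusters were seen. Of 3 alveolar fibroblast-like clusters, 2 had none of their own markers among those 10. Differences from the study's cell types may come from these rebuilt names. Doublets were scored with Scrublet in scanpy 1.11.5, which marked 38 cells (0.374%) and so did not work, and none were removed.

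UMIs were summed per library and class under Python 3.11.15 and scipy 1.17.1, with 1000000 UMIs as the CPM scale. Sums have exact Poisson, ratios conditional binomial and shares Clopper-Pearson 95% intervals, all covering counting error only, and a count of 0 was read as up to 3 UMIs. With 1 library per group no test was run. Ratios within a class needed 10 cells in both libraries, and log2 ratios have 1 UMI added to each sum. The interval script was tested on simulated data. Named are the members in every class, the listed pathway genes that passed the limits (1 of them is not reported here), and the 5 genes most correlated with each ligand of at least 200 UMIs. Alternatives covered the cell filter, scaling, depth, doublets, free RNA, leading barcodes and clustering.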

Additional observations from a re-analysis of the deposited data

Results flagged for a closer look

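In 3 classes *Cxcl10* went one way after ventilation in the young libraries and the other way in the aged ones. The aged log2 ratio was -3.79 in adventitial fibroblast-like, -3.07 in myofibroblast-like and -3.65 in smooth muscle-like cells, against 1.79, 3.28 and 4.45 in young mice. In aged nonventilated lung 1 barcode held 43 of the 77 UMIs of myofibroblast-like cells and another 115 of the 143 UMIs of smooth muscle-like cells. Without the highest doublet scores 1 of the latter was left. The adventitial fibroblast-like class depended on the clustering. With 1 library per group the difference between the ages was not tested.

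Barcodes outside the cell filter, which the comparisons did not use, held some of these transcripts above the level of the nonventilated library. In them the ventilated over nonventilated ratio of *Cxcl9* was 16.2 in young mice (22 and 342 UMIs) and 1.35 in aged mice (112 and 129 UMIs). For *Cxcl10* the young ratio was 20.9 (197 and 3959 UMIs), and in aged mice, where it was not raised, it was 0.76 (855 and 553 UMIs). For *Cxcr3* the aged ratio was 3.03 (26 and 67 UMIs) and the young ratio went the other way, at 0.208 (10 and 2 UMIs). None of these was tested.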

How the results depend on the processing

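No paired analysis was possible because each group was a single pooled library. Values are log2 ratios of library totals unless stated. The main ratios for young ventilated over nonventilated, aged ventilated over nonventilated, aged over young nonventilated and aged over young ventilated mice were 4.30, 2.50, 1.62 and -0.18 for *Cxcl9*, 4.23, 1.28, 1.13 and -1.81 for *Cxcl10* and -1.58, -0.20, 0.72 and 2.09 for *Cxcr3*. Of 120 library totals recomputed, 74 stayed within their counting intervals and 46 moved beyond them. The cause was not tested for any change below.

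With the percentile of UMIs taken over the barcodes left, *Cxcl9* gave 5.30, 1.14, 2.84 and -1.31 and *Cxcl10* 4.56, 1.17, 1.31 and -2.07. *Cxcl9* in aged conventional dendritic type 1-like cells after ventilation became -1.34 on 5 and 0 UMIs, and classes with *Cxcl9* lower in aged ventilated mice went from 2 to 4 and those with it higher after ventilation in aged mice from 4 to 2. With no upper limit on UMIs or genes, the aged ventilation ratio was 1.78 for *Cxcl9*, 0.82 for *Cxcl10* and 0.45 for *Cxcr3*, aged over young nonventilated was 1.39 for *Cxcl10*, and aged over young ventilated was -0.56 for *Cxcl9* and -2.08 for *Cxcl10*. Over all deposited barcodes the same values were 1.79, 0.80, 0.44, 1.36, -0.58 and -2.15. A mitochondrial limit of 5% gave *Cxcl10* 1.40 for aged over young nonventilated and -1.67 for aged over young ventilated mice, and scaling per cell kept gave -1.66 for the latter.

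Thinned to 2000 UMIs, *Cxcl10* gave 4.60, 1.71, 0.89 and -1.99, *Cxcl9* 2.15 for aged ventilation and -0.50 for aged over young ventilated, and *Cxcr3* -0.67 for young ventilation. Classes with *Cxcl10* higher went from 14 to 9 after young ventilation and from 5 to 3 with age. Those with *Cxcl9* higher went from 6 to 1 after young ventilation, from 4 to 0 after aged ventilation and from 1 to 0 with age, and those with it lower from 1 to 0 after aged ventilation and from 2 to 1 in aged ventilated mice. The share of cells with *Cxcr3* became 12.0% in T-like cells of both aged libraries, and 5.65%, 4.38% and 1.83% in dendritic type 1-like cells of young nonventilated, aged nonventilated and aged ventilated mice. Size factors gave *Cxcl9* -0.40 for aged over young ventilated and *Cxcl10* 4.80 for young ventilation, 1.58 for aged over young nonventilated and -2.04 for aged over young ventilated mice. The mean of per-cell CPM gave *Cxcl9* -0.52 for aged over young ventilated, *Cxcl10* 5.02, 1.65 and -2.34 for young ventilation, aged ventilation and aged over young ventilated, and *Cxcr3* -0.83 for young ventilation.

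Without the barcode holding the most UMIs, *Cxcl9* gave 4.91 and 2.86 for young and aged ventilation and -0.42 for aged over young ventilated mice, where *Cxcl10* gave -1.88. In adventitial fibroblast-like and aerocyte-like cells 0 *Cxcl9* UMIs were then left in either aged library, so that the ventilation values of 1.57 and -0.063 reflect the added UMI and carry no direction. Classes with *Cxcl9* higher went to 2 after aged ventilation and 0 with age, and lower to 0. Without the highest doublet scores *Cxcl10* gave 1.43, 0.85 and -1.91 for aged ventilation, aged over young nonventilated and aged over young ventilated mice, and smooth muscle-like cells became -1.19 for aged over young nonventilated mice, on 6 young and 1 aged UMI. At a resolution of 0.18, 0 *Cxcl9* UMIs were left in fibroblasts of both classes of the nonventilated and aged ventilated libraries, so that 0.13 after aged ventilation and -0.10 with age carry no direction. Classes with *Cxcl9* higher went to 3 after young and 1 after aged ventilation and lower to 0. Some clusters were unnamed at that resolution and gave no value. Clusters made without the members, an alternative chosen after seeing the data, moved none of 75 values. With 20 principal components 10 class ratios moved and 41 stayed, and the 10 counts of classes called stayed. A cluster of 1235 cells was unnamed there. Taking off free RNA moved none of 68 values. The rates taken off were 0 for *Cxcl9* and at most 2.99 CPM for *Cxcl10* and 0.211 CPM for *Cxcr3*, so this step could move little.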
